A study of Homo sapiens with 26 samples.

Results

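The genes described here are 9 B cell genes of the Toll-like receptor system. They are the receptors TLR1, TLR4, TLR6, TLR7, TLR9 and TLR10, the receptor-like CD180, the receptor chaperone UNC93B1 and the adaptor MYD88. They were chosen by name from 58592 genes, with earlier results of these data known, and all 9 passed the filter on low counts in both cell lines. Messenger RNA was sequenced, paired-end and strand-specific, from OCI-Ly7 and SUDHL4 (SU-DHL-4), both established lines of germinal centre B cell type diffuse large B cell lymphoma. All libraries, controls included, came from cells carrying a lentiviral dCas9-BFP-KRAB, a catalytically dead Cas9 fused to a fluorescent protein and a repressor domain and driven by the viral SFFV promoter. A second lentivirus brought a guide RNA against POU2AF1, against POU2F2 or, in the controls, a non-targeting one, to repress the targeted gene. In OCI-Ly7, grown in IMDM with serum, there were 6 POU2AF1 knockdown, 8 POU2F2 knockdown and 4 control libraries. In SUDHL4, grown in RPMI-1640 with serum, there were 1 POU2AF1 knockdown, 2 POU2F2 knockdown and 1 control library. The design asks which genes move when either factor is lost. Line and medium cannot be told apart. The labels do not say that replicates are separate cultures, so the p-values speak for the spread among these libraries, which may be technical. Fewer cells of a kind and less RNA per cell cannot be told apart in such bulk libraries.

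Toll-like receptors are sensors of microbial molecules. TLR1, TLR4, TLR6 and TLR10 act at the cell surface, and TLR7 and TLR9 sense RNA and DNA inside endosomes, to which UNC93B1 carries them. CD180 (RP105) is a surface protein with a Toll-like ectodomain and no signalling domain, found mainly on B cells, that works with the secreted partner MD-1. MYD88 couples most of these receptors to IRAK kinases and so to NF-kB. POU2F2 encodes OCT2, a factor that binds the octamer element, and POU2AF1 encodes OCA-B, a coactivator that OCT proteins recruit to it.

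Because the targeted factors act at octamer elements, the promoters of the members were searched for them. The RefSeq table used (GRCh38.p14) holds the 250 bases before and the 50 after the start of TLR4, TLR6, TLR9, CD180 and MYD88; TLR1, TLR7, TLR10 and UNC93B1 had no entry. On both strands the search covered the octamer ATGCAAAT, its first 7 bases ATGCAAA (which every full octamer also contains) and GAGGAAGT, a motif of the ETS factor PU.1. Of 35116 promoters in the table, 1.77% hold the full octamer, 4.46% its first 7 bases and 2.59% the PU.1 motif. TLR9 held the full octamer, starting 101 bases before its start site, and a PU.1 motif on the other strand, 9 bases before it. CD180 held the first 7 bases of the octamer, 44 bases before its start. TLR4 held a PU.1 motif on the other strand at 2 places, 101 and 173 bases before its start. The 3 promoters follow 5′ to 3′ on the strand of the gene, with the matches in capitals, where ACTTCCTC is the PU.1 motif read from the other strand. They are TLR9 at chr3:52225596-52225895 on the minus strand, CD180 at chr5:67196750-67197049 on the minus strand and TLR4 at chr9:117704153-117704452 on the plus strand.
TLR9: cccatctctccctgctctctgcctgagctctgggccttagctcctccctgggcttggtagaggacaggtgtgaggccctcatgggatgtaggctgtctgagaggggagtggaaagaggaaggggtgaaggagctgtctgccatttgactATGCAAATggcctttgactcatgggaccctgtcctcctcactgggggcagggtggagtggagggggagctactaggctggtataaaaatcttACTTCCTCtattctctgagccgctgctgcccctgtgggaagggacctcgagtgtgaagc
CD180: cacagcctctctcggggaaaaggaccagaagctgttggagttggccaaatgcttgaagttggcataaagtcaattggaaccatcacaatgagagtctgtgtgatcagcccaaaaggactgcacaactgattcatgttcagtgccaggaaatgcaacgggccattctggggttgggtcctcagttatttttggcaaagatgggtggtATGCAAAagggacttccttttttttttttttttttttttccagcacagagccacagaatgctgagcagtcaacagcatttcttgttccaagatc
TLR4: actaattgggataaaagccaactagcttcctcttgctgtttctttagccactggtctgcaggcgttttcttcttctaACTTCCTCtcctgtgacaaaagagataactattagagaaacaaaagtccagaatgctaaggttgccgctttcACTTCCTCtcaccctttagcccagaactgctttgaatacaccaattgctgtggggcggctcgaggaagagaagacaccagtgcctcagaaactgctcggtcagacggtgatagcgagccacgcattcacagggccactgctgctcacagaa
The promoters of MYD88 and TLR6 held none of the motifs searched. A match in these letters is a description and does not show that a factor binds there.

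Each library held 26325730 to 59431931 estimated reads assigned to genes. POU2AF1 reached 27.8, 37.6 and 89.5 CPM (read counts scaled to library size with TMM normalisation; lowest, median and highest) in OCI-Ly7 POU2AF1 knockdown, against 448 to 479 CPM in the 4 controls. In SUDHL4 it had 74.1 CPM in the POU2AF1 knockdown against 405.5 CPM in the control. POU2F2 reached 56.6, 70.4 and 150.0 CPM in OCI-Ly7 POU2F2 knockdown against 211 to 410 CPM in the controls. In SUDHL4 it had 40.6 and 52.1 CPM in the POU2F2 knockdown against 303 CPM in the control. In the SUDHL4 POU2AF1 knockdown POU2F2 had a log2 change of 0.61 ± 0.15 by edgeR within the line (adjusted p = 0.0081), which neither DESeq2 (adjusted p = 0.205) nor the fit of all 22 libraries (adjusted p = 0.782) called, and its TPM was 115 against 125 in the control. The median gene was also lower on TPM in that comparison, with a log2(TPM + 0.1) change of -0.26 over all genes tested. The labels divide OCI-Ly7 into batch 1 (4 POU2AF1 knockdown libraries and 1 control) and batch 2, which holds all others. The descriptions mark 3 files as 48 h, POU2AF1 knockdown replicate 3 and control replicate 3 of batch 1 and POU2F2 knockdown replicate 3 of batch 2, and the other files carry no time. Control replicate 3 was nearly the sum of control replicates 1 and 2, and these files were counted as 1 control. POU2F2 knockdown replicate 3, labelled batch 2, correlated better with batch 1 libraries (mean r 0.9861 on log2 CPM) than with batch 2 libraries (0.9611). All SUDHL4 libraries are batch 1. Mitochondrially encoded genes took 25.8% of the reads of OCI-Ly7 POU2AF1 knockdown replicate 1 and 7.04% to 14.04% of the others. B cell markers were abundant in every library, with 7 of 7 above 1 CPM. Markers of T and NK cells summed to at most 3.58 CPM, those of monocytes and macrophages to at most 1.44 CPM and those of plasmacytoid dendritic cells to at most 0.784 CPM. Of the 7 germinal centre markers LMO2 was at or near 0 in OCI-Ly7 and the other 6 were above 1 CPM in every library.

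Per length of transcript, TLR10 and UNC93B1 were the most abundant members in both lines. In the OCI-Ly7 controls TLR10 averaged 32.2 ± 12.9 TPM (the deposited length-normalised unit; SD, n = 4) and UNC93B1 24.9 ± 4.18 TPM, which do not differ beyond their spread. Protein-coding transcripts took 38.8% to 68.0% of the UNC93B1 TPM there (9.62 to 20.7 TPM). For TLR10 they took 88.0% to 92.6% (20.6 to 47.25 TPM). Summed over all transcripts, CD180 followed at 9.26 ± 1.61 TPM. MYD88, TLR7, TLR4 and TLR1 lay between 3.92 and 5.34 TPM on average, within their spread of each other, and TLR6 and TLR9 were the lowest at 2.61 ± 0.955 and 2.37 ± 1.70 TPM. The single SUDHL4 control had 41.0 TPM of UNC93B1, 23.4 of TLR10, 13.04 of CD180 and 10.4 of TLR1. TLR6, MYD88 and TLR9 lay close together there, at 4.55, 4.41 and 4.38 TPM. TLR4 and TLR7 were the lowest members there, at 0.334 and 0.126 TPM. In SUDHL4, TLR10 had 63.9 TPM in the POU2AF1 knockdown and 41.3 and 42.2 TPM in the POU2F2 knockdown libraries. UNC93B1 had 39.0 TPM in the POU2AF1 knockdown and 40.2 and 45.2 TPM in the POU2F2 knockdown libraries. TLR10 thus stood above UNC93B1 in the POU2AF1 knockdown and in 1 of the POU2F2 knockdown libraries, and below it in the control.

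**Figure D1:**
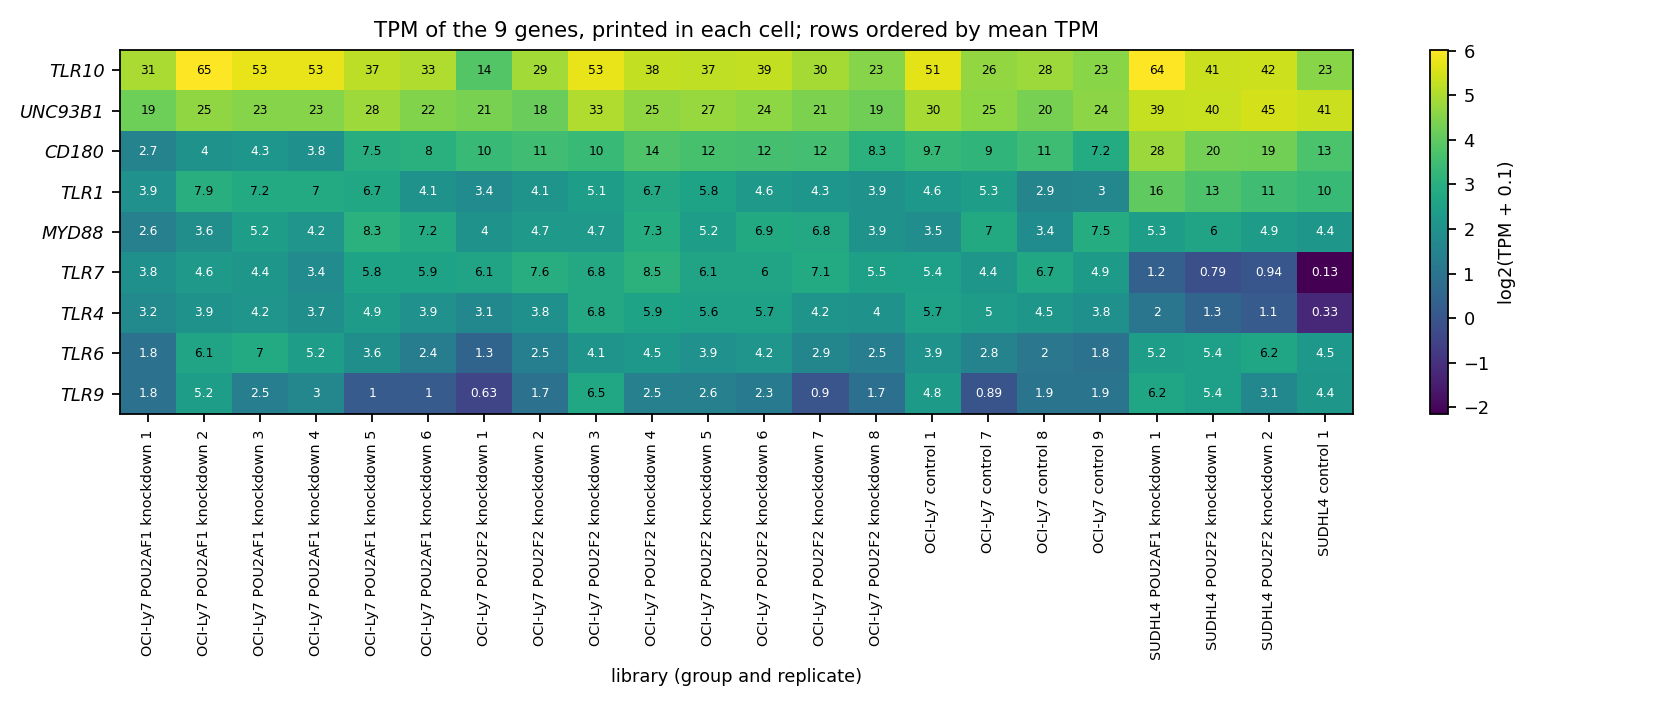
TPM of the 9 genes (rows, ordered by mean) in each of the 22 libraries (columns), with the value printed in each cell and the colour giving log2(TPM + 0.1). TLR10 and UNC93B1 form the bright upper rows, and the darkest cells are TLR7 (0.126 TPM) and TLR4 (0.334 TPM) in the SUDHL4 control.

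In SUDHL4 the POU2AF1 knockdown had more RNA of most receptors than the control. Of the 9 members 7 rose and none fell (TLR1, TLR4, TLR6, TLR7, TLR10, CD180 and MYD88), with a median log2 change of 1.11 for the 9, against 0.01 over all genes. In the same test 36.8% of 16973 genes were called, 3056 of these 6247 genes as higher. The test was edgeR's quasi-likelihood test with Benjamini-Hochberg adjustment, and genes with an adjusted p below 0.05 were called. Its spread rests on the pair of POU2F2 knockdown libraries, the only replicates in SUDHL4, and the lone POU2AF1 knockdown and control libraries are assumed to vary like them. A fit pooling both lines (22 libraries), with its spread mainly from OCI-Ly7, called 1.66% of genes, 1.11% as higher. It called TLR4 and TLR7 and none of the other 7.

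TLR4, the lipopolysaccharide receptor, was barely detected in SUDHL4 control cells and rose with both knockdowns. It had 10.9 CPM (620 reads) in the SUDHL4 POU2AF1 knockdown, 6.21 CPM (301 reads) and 4.37 CPM (201 reads) in the POU2F2 knockdown libraries and 1.15 CPM (60 reads) in the control. Both knockdowns lay above the control with no overlap of the 95% counting intervals, 10.1 to 11.8, 5.53 to 6.96, 3.79 to 5.02 and 0.874 to 1.47 CPM, which cover counting error only. The log2 change was 3.25 ± 0.29 (SE; adjusted p = 6.28e-10) with POU2AF1 knockdown and 2.21 ± 0.27 (adjusted p = 1.2e-06) with POU2F2 knockdown. The ratio to the control for POU2AF1 knockdown was 9.54 on CPM and 5.97 on the deposited TPM. In the pooled fit the first was 3.23 ± 0.51 (adjusted p = 0.00201) and the second was not called (2.17 ± 0.46, adjusted p = 0.111).

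TLR7, the endosomal receptor for single-stranded RNA, showed the same order of groups from a lower start. It had 5.18 CPM (294 reads) in the POU2AF1 knockdown, 2.52 CPM (122 reads) and 1.89 CPM (87 reads) in the POU2F2 knockdown and 0.458 CPM (24 reads) in the control, a ratio of 11.3 for POU2AF1 knockdown and of 4.82 for the POU2F2 knockdown mean. The counting intervals of the knockdowns, 4.60 to 5.81, 2.09 to 3.01 and 1.52 to 2.34 CPM, lay above that of the control, 0.293 to 0.681 CPM. The log2 change was 3.49 ± 0.41 (adjusted p = 1.82e-08) with POU2AF1 knockdown and 2.26 ± 0.38 (adjusted p = 7.76e-05) with POU2F2 knockdown, and the pooled fit called both (adjusted p = 7.04e-05 and 0.0173). Without POU2F2 knockdown replicate 1 it did not call the second (adjusted p = 0.0874). The POU2AF1 knockdown and control were each deposited as 2 files that differed by about the sampling noise and were counted as 1 library. Singly they held 140 and 153 TLR7 reads in the POU2AF1 knockdown and 13 and 11 in the control. The summed markers of 3 other cell types were also higher in the knockdowns than in the control, at low levels. The 5 markers of plasmacytoid dendritic cells summed to 0.652 CPM in the POU2AF1 knockdown, 0.165 and 0.109 CPM in the POU2F2 knockdown and 0.0382 CPM in the control, with 1, 3, 2 and 3 of them at 0. The 8 of monocytes and macrophages summed to 1.44 CPM in the POU2AF1 knockdown, 0.661 and 0.979 CPM in the POU2F2 knockdown and 0.362 CPM in the control, with 4, 3, 3 and 5 at 0. The 8 of T and NK cells summed to 3.36 CPM in the POU2AF1 knockdown, 2.64 and 2.72 CPM in the POU2F2 knockdown and 1.28 CPM in the control, with 4, 3, 3 and 4 at 0. Their part in the TLR4 and TLR7 values was not tested.

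TLR10, a receptor expressed mainly on B cells, and TLR1, a partner of TLR2, lie close together with TLR6 on chromosome 4 (TLR10 at chr4:38772239-38782990, TLR1 at chr4:38790677-38856817 and TLR6 at chr4:38823715-38856817, all on the minus strand, GRCh38). The annotated span of TLR6 lies within that of TLR1. TLR10 had 165.8 CPM in the SUDHL4 POU2AF1 knockdown, 95.8 and 84.2 CPM in the POU2F2 knockdown and 49.1 CPM in the control. Its log2 change was 1.75 ± 0.11 (adjusted p = 3.79e-14) with POU2AF1 knockdown and 0.87 ± 0.10 (adjusted p = 1.12e-07) with POU2F2 knockdown. TLR1 had 24.6 CPM in the POU2AF1 knockdown, 18.02 and 15.7 CPM in the POU2F2 knockdown and 11.4 CPM in the control, with log2 changes of 1.11 ± 0.15 and 0.57 ± 0.13. TLR6, the other partner of TLR2, had 25.2 CPM in the POU2AF1 knockdown, 23.3 and 21.5 CPM in the POU2F2 knockdown and 18.1 CPM in the control. Its log2 change of 0.48 ± 0.13 was called for POU2AF1 knockdown (adjusted p = 0.00452), and 0.31 ± 0.12 for POU2F2 knockdown was not (adjusted p = 0.111). DESeq2 called neither the TLR6 change with POU2AF1 knockdown (adjusted p = 0.115) nor the TLR1 change with POU2F2 knockdown (adjusted p = 0.217). On CPM the order of the groups was the same for all 3. On TPM it held for TLR10 and TLR1 and not for TLR6, which had 5.18 TPM in the POU2AF1 knockdown, 5.36 and 6.20 TPM in the POU2F2 knockdown and 4.55 TPM in the control. The median gene was likewise higher on TPM in POU2F2 than in POU2AF1 knockdown, by 0.17 on log2(TPM + 0.1). TLR1 and TLR6 share 418 sequences of 31 bases, 9.06% of those in TLR1, and 9.20% of those in TLR6 are found in TLR1 or another gene, so a small part of their reads may be split between them.

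CD180 had 133 CPM in the SUDHL4 POU2AF1 knockdown, 88.8 and 78.4 CPM in the POU2F2 knockdown and 53.0 CPM in the control. Its log2 change was 1.33 ± 0.11 (adjusted p = 1.48e-11) with POU2AF1 knockdown and 0.66 ± 0.10 (adjusted p = 1.29e-05) with POU2F2 knockdown. In the pooled fit the CD180 changes were 1.31 ± 0.40 and 0.63 ± 0.35 and did not pass the threshold (adjusted p = 0.119 and 1). The values of 7 B cell markers stood in the same order, with a summed 5774 CPM in the POU2AF1 knockdown, 3988 and 3559 CPM in the POU2F2 knockdown and 2402 CPM in the control. All 7 of these markers were called as higher with POU2AF1 knockdown and 5 of 7 with POU2F2 knockdown, among them MS4A1, which encodes CD20 (log2 change 1.62 and 0.97). Summed germinal centre markers stood in the opposite order, with 1081 CPM in the POU2AF1 knockdown, 1349 and 1334 CPM in the POU2F2 knockdown and 1552 CPM in the control. Singly they went both ways. Of the 7, 2 were called as higher and 3 as lower with POU2AF1 knockdown, and 1 as higher and 2 as lower with POU2F2 knockdown. The part of both lists in the receptor values was not tested.

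Of the trafficking and signalling members, MYD88 was called in 1 comparison in SUDHL4 and UNC93B1 in none. UNC93B1 had 68.5 CPM in the POU2AF1 knockdown, 67.8 and 65.5 CPM in the POU2F2 knockdown and 58.7 CPM in the control, and its log2 changes of 0.22 ± 0.10 and 0.18 ± 0.09 did not pass the test (adjusted p = 0.0906 and 0.267). With a minimum of 50 reads per gene the first was called (0.25 ± 0.10, adjusted p = 0.0438). On the deposited TPM its level was 0.953 times the control in the POU2AF1 knockdown, where the median log2(TPM + 0.1) change over all genes tested was -0.26. Of the 31-base sequences of UNC93B1, 17.6% are found in other genes, mainly the copies UNC93B6 and UNC93B5, so its reads may be split with them. MYD88 had 11.9 CPM in the POU2AF1 knockdown, 10.3 and 7.44 CPM in the POU2F2 knockdown and 7.69 CPM in the control, so that the control lay between the POU2F2 knockdown libraries. Its log2 change of 0.62 ± 0.21 with POU2AF1 knockdown was called (adjusted p = 0.0238), but not on log2(TPM + 0.1), where limma gave 0.25 ± 0.40 (adjusted p = 0.719), nor by DESeq2 (adjusted p = 0.209). The MYD88 sum covers the 13 MYD88 transcripts matched to GENCODE release 29, of which protein-coding ones took a median of 32.1% of its TPM in OCI-Ly7 POU2AF1 knockdown, 4.89% in POU2F2 knockdown and 1.01% in the controls. In SUDHL4 they took 18.3% in the POU2AF1 knockdown, 39.0% and 44.8% in the POU2F2 knockdown and 24.9% in the control. The protein-coding MYD88 transcripts thus had 0.964 TPM in the SUDHL4 POU2AF1 knockdown against 1.10 TPM in the control. As the median gene was lower on TPM there too, this does not show a fall relative to other genes. Newer MYD88 transcripts were not used here, so these values may miss much of the gene.

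TLR9, the receptor for unmethylated CpG DNA, was not called in either comparison in SUDHL4. It had 22.6 CPM in the POU2AF1 knockdown, 18.5 and 9.34 CPM in the POU2F2 knockdown and 13.3 CPM in the control, and the POU2F2 knockdown libraries lay on both sides of the control. The log2 changes were 0.77 ± 0.87 (adjusted p = 0.658) and 0.07 ± 0.77 (adjusted p = 0.986). With RLE size factors in place of TMM the first was 0.77 ± 0.15 and was called (adjusted p = 1.9e-06). TLR9 shares 85.5% of its sequences of 31 bases with AC097637.1 (ENSG00000173366), so the division of reads between them is uncertain. Summed, both genes had 55.1 CPM in the POU2AF1 knockdown, 47.8 and 42.7 CPM in the POU2F2 knockdown and 46.2 CPM in the control. The sum, an alternative chosen after the overlap was seen, changed no call against control.

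**Figure D2:**
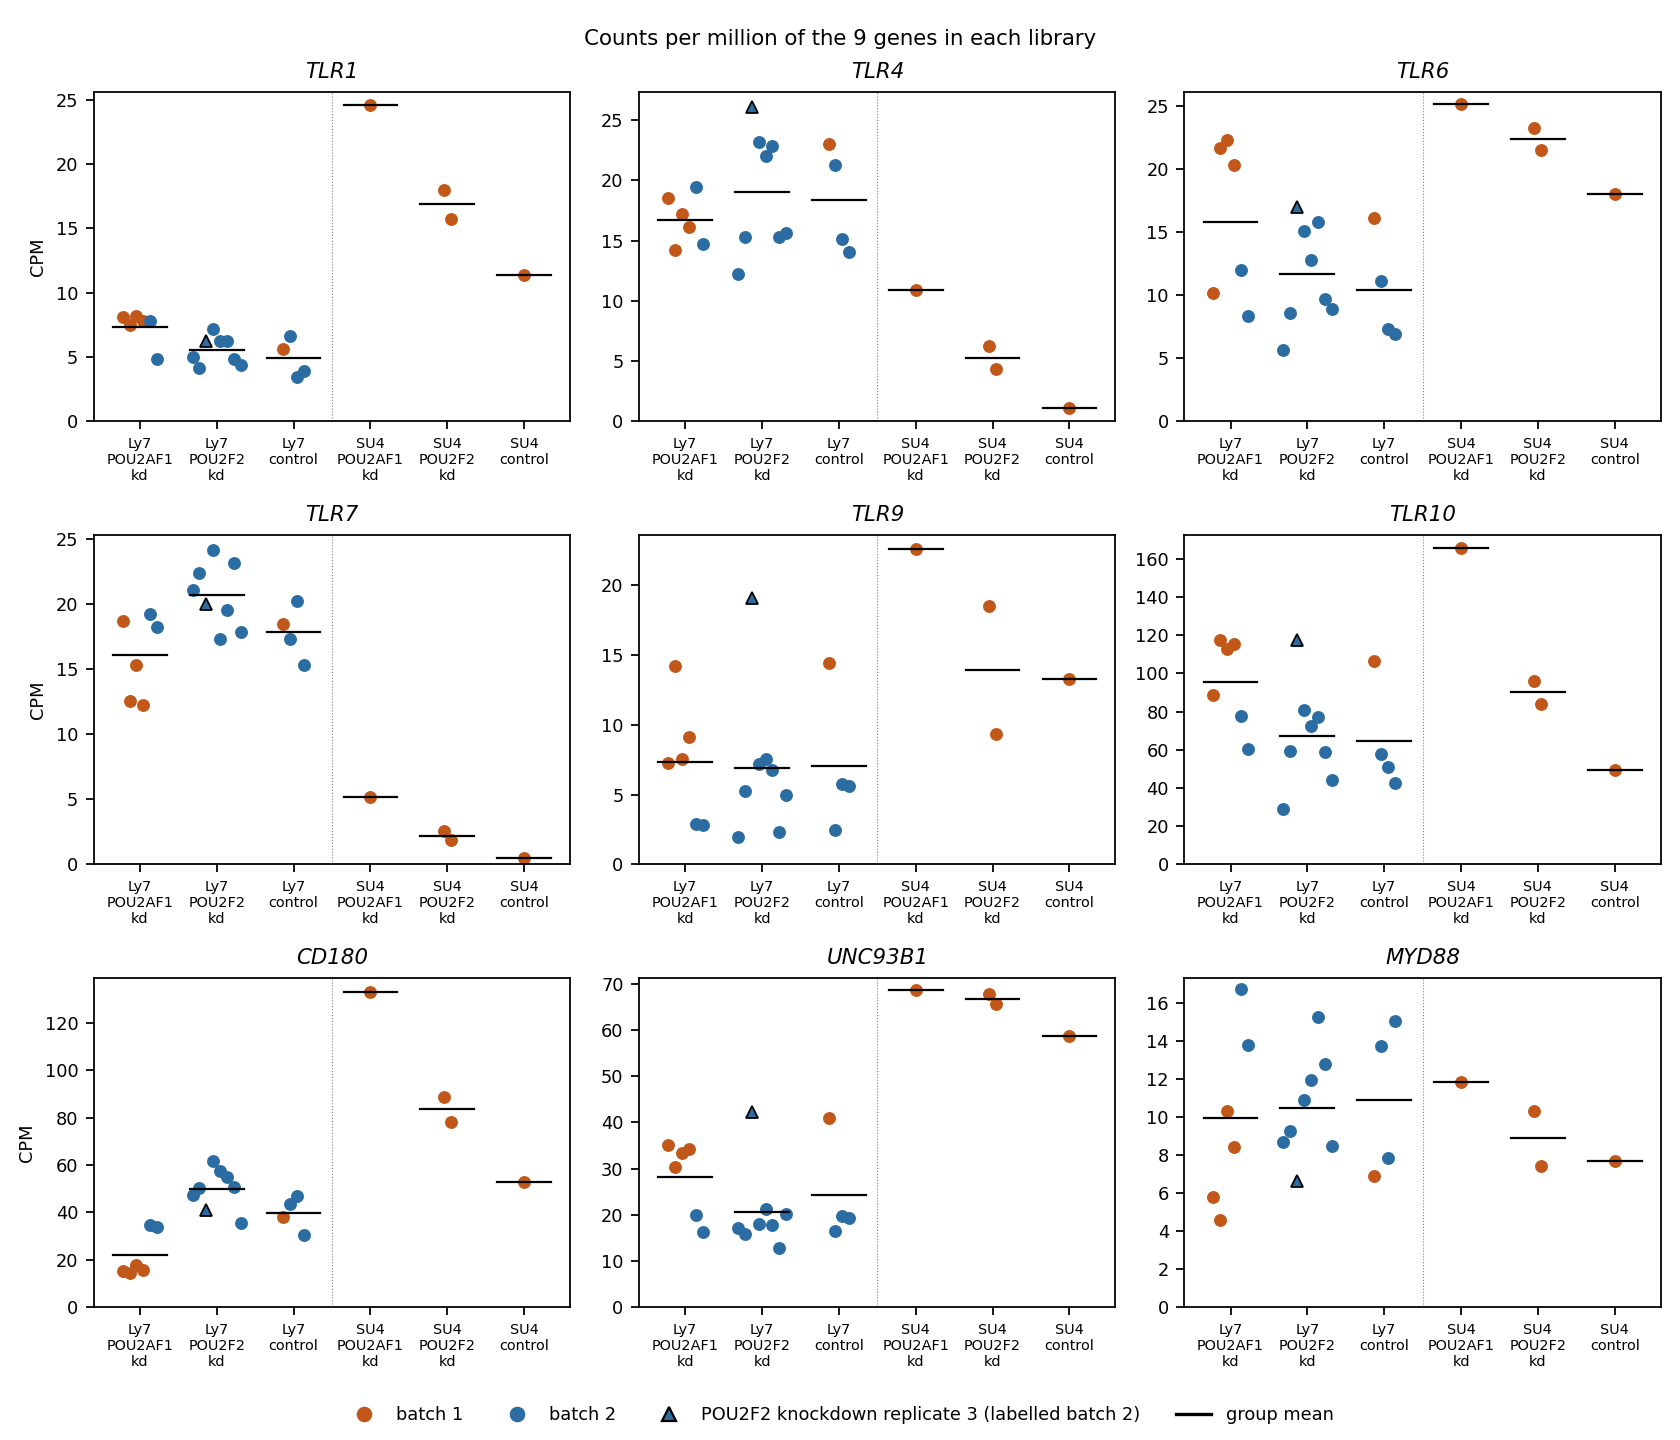
CPM of each gene (y axis, linear from 0, scaled per gene) by group (x axis; Ly7 is OCI-Ly7, SU4 is SUDHL4, kd is knockdown), with 1 point per library coloured by labelled batch and lines at the group means. In SUDHL4, TLR1, TLR4, TLR7, TLR10 and CD180 step down through POU2AF1 knockdown, POU2F2 knockdown and control, and in OCI-Ly7 CD180 is lowest in 4 batch 1 libraries of POU2AF1 knockdown (14.5 to 17.7 CPM).

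With POU2F2 knockdown 5 members rose in SUDHL4 and none fell (TLR1, TLR4, TLR7, TLR10 and CD180), where 7.35% of all genes were called and 4.79% as higher. The median log2 change of the 9 was 0.57, against 0.01 over all genes. TLR7 was the 1 member that the pooled fit called, where 0.0951% of genes were called and 0.0529% as higher. Both knockdowns are set against the same control library. The pair of knockdowns was therefore also compared directly: 5 members were lower in POU2F2 knockdown than in POU2AF1 knockdown, in a test that called 26.2% of genes, 12.4% as lower. These were TLR7 (log2 difference -1.23 ± 0.29), TLR4 (-1.04 ± 0.21), TLR10 (-0.88 ± 0.09), CD180 (-0.67 ± 0.09) and TLR1 (-0.54 ± 0.12), with adjusted p-values of 0.00141 or less by edgeR. DESeq2 did not call TLR7 (adjusted p = 0.0934) or TLR1 (adjusted p = 0.0662) there. The pooled fit, which called 0.196% of genes, called no member here (TLR7 had an unadjusted p of 0.000243 and an adjusted p of 0.0897, and TLR4 an unadjusted p of 0.0128). The summed TLR9 and AC097637.1 were also lower in this direct comparison, by a log2 difference of -0.28 (adjusted p = 0.0238).

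In OCI-Ly7 no member passed the test with POU2AF1 knockdown, where edgeR called 0.887% of 16001 genes, and CD180 came closest. CD180 was the 1 member with an unadjusted p below 0.05 there, and DESeq2 called none of the members (CD180 adjusted p = 0.0946). Its CPM in the 6 POU2AF1 knockdown libraries was 15.3, 14.5, 17.7 and 15.5 in batch 1 and 34.7 and 34.0 in batch 2, against 38.3 in the batch 1 control and 43.5, 47.0 and 30.6 in batch 2 controls. In batch 1 all 4 knockdown libraries were below the control, and in batch 2 both lay within the range of the controls. Against the batch 2 control of the same series mark in the descriptions both were lower, at 34.7 against 43.5 CPM in s0 and 34.0 against 47.0 CPM in s2. The log2 change with batch as a term was -0.68 ± 0.19 (adjusted p = 0.138). It was -1.27 ± 0.16 within batch 1 (adjusted p = 0.0585), where the 1 control is assumed to vary like the knockdowns and 0.140% of genes were called. It was -0.21 ± 0.24 within batch 2 (adjusted p = 1), where 0.0430% were called. With the series marks of the labels as a block in place of batch (series block) it was -0.80 ± 0.13 (adjusted p = 0.00152), in a fit that called 5.59% of genes, 3.09% as lower. Libraries without a series mark were blocked by batch there, so that all batch 1 libraries shared 1 block with 1 control. The CD180 call depended on single controls. Without control replicate 1, the batch 1 control, the change was -0.22 (adjusted p = 1) with the batch term and -0.40 (adjusted p = 0.126) with the series block, and without control replicate 9 it was -0.81 (adjusted p = 0.0409) with the batch term. The remaining POU2AF1 RNA differed between the batches too, at 27.8 to 42.9 CPM in the 4 batch 1 knockdown libraries and 89.5 and 82.7 CPM in those of batch 2, and its part in the CD180 values was not tested. In the same comparison 4 of 6 germinal centre markers, BCL6 among them, and 1 of 7 B cell markers (CD22, the inhibitory co-receptor of the B cell receptor) fell.

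**Figure D3:**
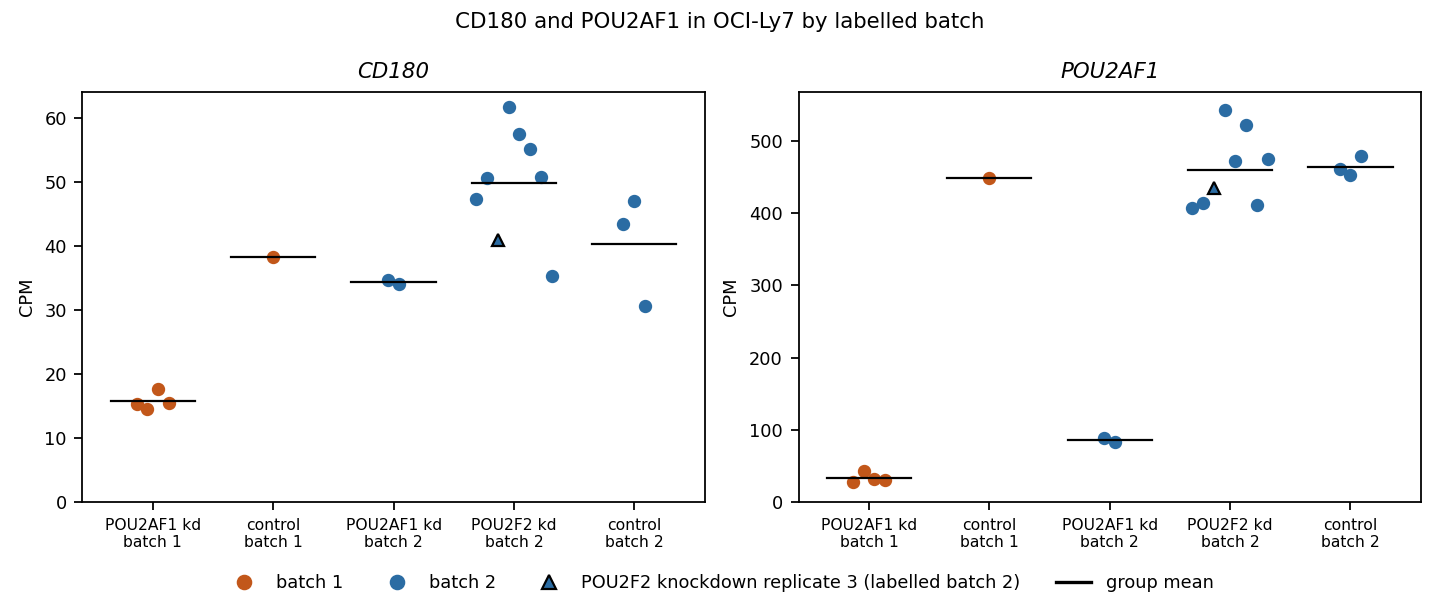
CPM of CD180 (left) and POU2AF1 (right) in OCI-Ly7 libraries, by group and labelled batch, with lines at the means. CD180 is 14.5 to 17.7 CPM in the 4 POU2AF1 knockdown libraries of batch 1 and 34.0 and 34.7 CPM in those of batch 2, and the POU2AF1 left after knockdown is lower in batch 1.

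Levels of several other members in OCI-Ly7 stood apart by labelled batch, which was not tested. Batch 1 holds mostly POU2AF1 knockdown libraries and no POU2F2 knockdown library, so batch and knockdown are largely mixed in these ranges. UNC93B1 had 30.4 to 41.0 CPM in the 5 batch 1 libraries and 12.9 to 21.3 CPM in 12 of the 13 batch 2 libraries, and 42.2 CPM in POU2F2 knockdown replicate 3. TLR10 had 88.5 to 117.5 CPM in batch 1, 28.9 to 81.0 CPM in those 12 and 117.4 CPM in that replicate. TLR9 had 7.24 to 14.4 CPM in batch 1, 1.96 to 7.57 CPM in the 12 and 19.1 CPM in that replicate. Replicate 3 was within or above the batch 1 range for all 3 genes, and the TLR9 ranges of batch 1 and of the 12 overlapped. TLR6 averaged 18.1 ± 5.05 CPM in batch 1 and 10.7 ± 3.61 CPM in batch 2, TLR1 7.44 ± 1.06 and 5.45 ± 1.35 CPM and MYD88 7.21 ± 2.25 and 11.6 ± 3.24 CPM (SD, n = 5 and 13), with overlapping ranges. The TPM of UNC93B1 summed over its transcripts showed no such split, at 18.6 to 25.3 in the batch 1 POU2AF1 knockdown libraries and 28.2 and 22.2 in those of batch 2. Its protein-coding transcript UNC93B1-201 nearly did, with 12.8 to 20.7 TPM in batch 1, 8.01 to 12.9 TPM in the 12 and 21.5 TPM in replicate 3. The ranges of batch 1 and of the 12 overlapped slightly. The retained-intron transcript UNC93B1-203 had 0 to 1.02 TPM in batch 1 and 0 to 9.75 TPM in the 12. TLR1 had 4.81, 7.80 and 8.16 CPM (lowest, median and highest) in POU2AF1 knockdown against control values of 5.61, 6.65, 3.46 and 3.89 CPM. Its groups overlapped, and its log2 change of 0.46 ± 0.23 was not called (adjusted p = 0.841), nor with the series block (0.41 ± 0.12, adjusted p = 0.0559). TLR6 had 8.38, 16.2 and 22.3 CPM in POU2AF1 knockdown against control values of 16.1, 11.2, 7.31 and 6.94 CPM, with a log2 change of 0.24 ± 0.31. TLR4 had 14.2, 16.7 and 19.5 CPM in POU2AF1 knockdown against control values of 23.0, 21.3, 15.1 and 14.1 CPM, a log2 change of -0.18 ± 0.22. TLR7 had 12.2, 16.8 and 19.3 CPM in POU2AF1 knockdown against control values of 18.5, 17.3, 20.2 and 15.3 CPM, a log2 change of -0.08 ± 0.15. The groups overlapped for TLR6, TLR4 and TLR7. MYD88, TLR10, UNC93B1 and TLR9 had log2 changes between -0.65 and 0.28, none of them called. Leaving out POU2AF1 knockdown replicate 1, the library rich in mitochondrial reads, from the series block gave calls for TLR1, TLR10 and CD180. This alternative was chosen after the data were seen, and the share of all genes it called is not given here.

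POU2F2 knockdown in OCI-Ly7 called no member and no gene at all (0% of 16001 genes), although 283 genes had an unadjusted p below 0.05 and DESeq2 called 5. POU2F2 itself was at a log2 change of -1.57 ± 0.24 (adjusted p = 0.0559), and at -1.73 ± 0.18 with the series block (adjusted p = 0.00218), which called 0.0812% of genes and none of the members. No member had an unadjusted p below 0.05 with the batch term, and DESeq2 called none. CD180 had 35.4, 50.6 and 61.7 CPM (lowest, median and highest) in the 8 POU2F2 knockdown libraries against control values of 38.3, 43.5, 47.0 and 30.6 CPM, and the groups overlapped. Of these, 6 share a series mark with a control, and CD180 was higher in 6 of 6 than in that control. The same held for TLR4, TLR6, TLR7 and TLR10, while TLR1 and UNC93B1 were higher in 4 and TLR9 and MYD88 in 3. Some of these differences were nearly ties. TLR7 had 17.34 against 17.33 CPM in replicate 5, and TLR4 had 15.28 and 15.27 against 15.14 CPM in replicates 2 and 7. Some of these libraries share a control, so the 6 are not independent comparisons, and the share over all genes is not given here. The log2 change of CD180 was 0.11 ± 0.19. TLR4 had 12.2, 18.8 and 26.1 CPM and TLR7 17.3, 20.5 and 24.2 CPM in POU2F2 knockdown, with the control values as above and log2 changes of 0.09 ± 0.20 and 0.16 ± 0.14. The changes of the other 6 members lay between -0.26 and 0.59, with a median over the 9 of 0.16 against 0.00 over all genes. Set directly against POU2AF1 knockdown, in a test that called 0.162% of genes, no member was called by edgeR or DESeq2, and TLR9 and CD180 had an unadjusted p below 0.05. The fitted TLR9 log2 difference was 1.24, and it ran from -0.09 to 1.38 over the alternatives. Its median without the batch term lay the other way, at 6.03 CPM in POU2F2 knockdown and 7.41 CPM in POU2AF1 knockdown. CD180 was again nearest, with a log2 difference of 0.79 ± 0.20 (adjusted p = 0.232), and with the series block, which called 1.26% of genes, 0.850% as higher, the difference was 0.88 ± 0.14 (adjusted p = 0.00454). The 4 batch 1 libraries of POU2AF1 knockdown have no labelled counterpart in POU2F2 knockdown, and within batch 2, where 0.0245% of genes were called, the difference was 0.54 ± 0.21 (adjusted p = 1).

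**Figure D4:**
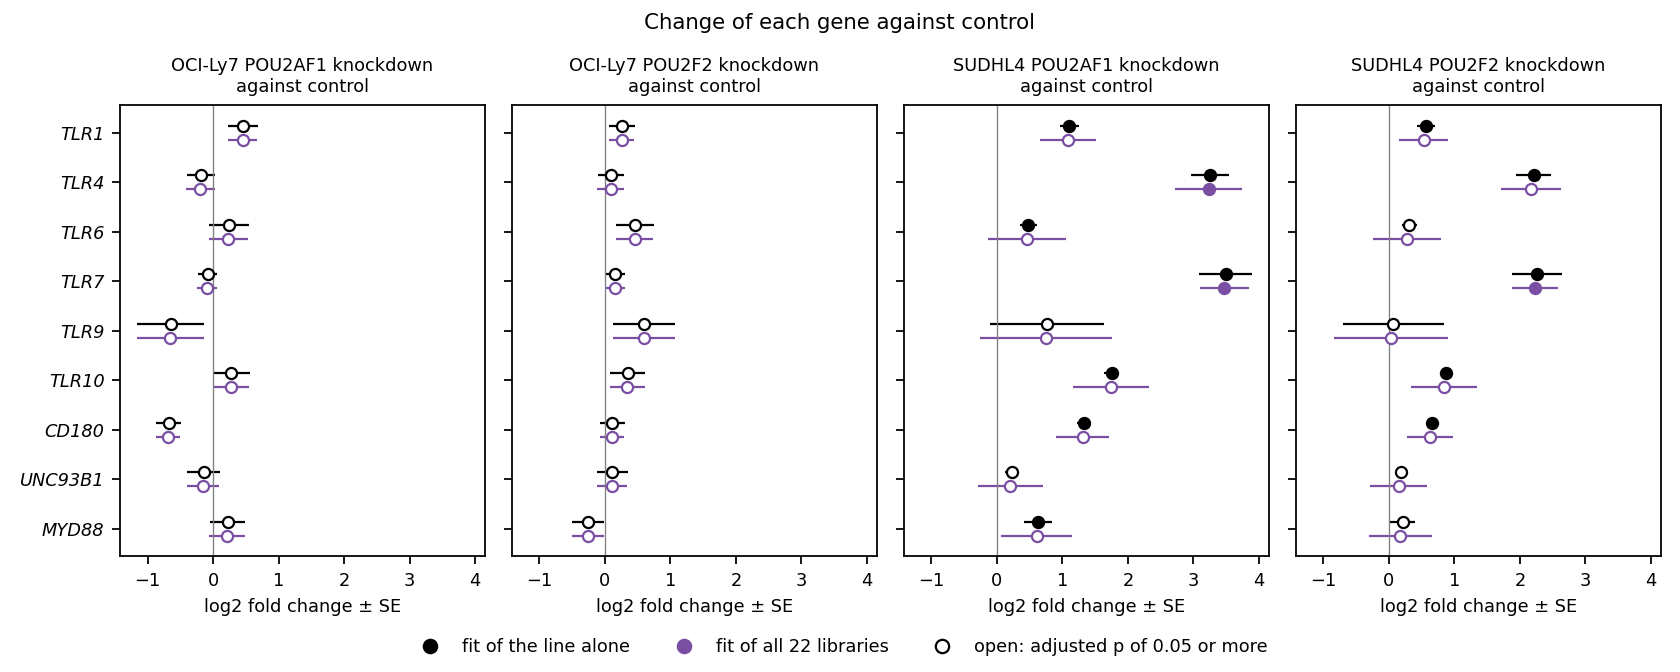
Fitted log2 fold change of each gene against control with its standard error (x axis), for each line and knockdown, in the fit of the line alone (black) and in the fit pooling both lines (purple); filled points have an adjusted p below 0.05. In SUDHL4 the points of TLR4 and TLR7 lie at 2.21 to 3.49 in the fit of the line alone, and in OCI-Ly7 all points lie between -0.68 and 0.59.

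The lines differed in their control levels and in their response. Between controls, OCI-Ly7 had more TLR7 (log2 difference 4.99 ± 0.38, adjusted p = 1.06e-08) and TLR4 (3.95 ± 0.50, adjusted p = 6.95e-06) and less CD180 (-1.07 ± 0.32, adjusted p = 0.0198) and TLR1 (-1.14 ± 0.35, adjusted p = 0.0243) than SUDHL4, by edgeR in the pooled fit. In this comparison 23.5% of 18918 genes were called, 2083 as higher and 2365 as lower, and SUDHL4 contributed 1 control library. With the series block, which called 44.5% of genes, TLR10 (0.86 ± 0.17, adjusted p = 0.000505) was called as higher and UNC93B1 (-0.80 ± 0.18, adjusted p = 0.00203) as lower in addition. The TLR1 call was lost without OCI-Ly7 POU2AF1 knockdown replicate 5 (adjusted p = 0.0600) or control replicate 1 (adjusted p = 0.0945). The CD180 difference ran from -1.67 to -0.60 over the alternatives, and its fitted value carries a batch term estimated over all groups. On TPM, CD180 averaged 9.26 in the 4 OCI-Ly7 controls, with 9.74 in the batch 1 control, against 13.04 in the SUDHL4 control. The response to POU2AF1 knockdown was tested as an interaction, and 3 members differed, all more negative in OCI-Ly7, in a test that called 0.798% of genes, 0.655% as lower. The difference of log2 changes was -3.56 ± 0.41 for TLR7 (adjusted p = 0.000202), -3.42 ± 0.55 for TLR4 (adjusted p = 0.00324) and -2.00 ± 0.45 for CD180 (adjusted p = 0.0402). The CD180 call was lost, at values of -1.55 to -2.00 and adjusted p of 0.0529 to 0.107, when any 1 of 10 libraries was left out: OCI-Ly7 POU2AF1 knockdown replicate 2, 3 or 4, POU2F2 knockdown replicate 2, 6 or 7, control replicate 1 or 8, or either SUDHL4 POU2F2 knockdown library. TLR10 differed by -1.47 ± 0.64 (adjusted p = 0.412) and was called with the series block, at -1.57 ± 0.21 (adjusted p = 0.000205), where 10.3% of genes were called. For the response to POU2F2 knockdown edgeR called none of the 9 members and 0.0106% of all genes, with 474 genes at an unadjusted p below 0.05. TLR7 was at -2.08 ± 0.37 (adjusted p = 0.0890) and TLR4 at -2.09 ± 0.49 (adjusted p = 0.404), and both were called by DESeq2 (adjusted p = 0.00476 and 0.0171) and with the series block (adjusted p = 0.0331 and 0.0022), where 0.222% of genes were called.

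The rest of the pathway was followed in 58 listed genes. In SUDHL4 51 of them were tested, and with POU2AF1 knockdown 15 rose and 10 fell (49.0% of the 51, against 36.8% of all genes), with a median log2 change of 0.13 against 0.01 over all genes. None was called in the pooled fit. Those that rose included both tested coreceptor genes, LY86, which encodes MD-1, the partner of CD180 (log2 change 1.23 ± 0.15, adjusted p = 3.53e-05), and LY96, which encodes MD-2, the partner of TLR4 (0.81 ± 0.22, adjusted p = 0.00326). LY86 had 50.1 CPM in the POU2AF1 knockdown, 29.4 and 22.9 CPM in the POU2F2 knockdown and 21.3 CPM in the control. CD14, the other coreceptor of TLR4, had at most 0.134 CPM in SUDHL4. Of the 10 genes of folding, trafficking and cleavage 4 rose, the chaperone partner CNPY3 (0.70 ± 0.11) and the endosomal proteases LGMN (0.63 ± 0.16), CTSS (0.55 ± 0.11) and CTSB (0.46 ± 0.13), and LRRC59 fell (-0.59 ± 0.11).

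Downstream of the receptors the changes with POU2AF1 knockdown in SUDHL4 went both ways. The transcription factor IRF7, which acts below TLR7 and TLR9, had 19.0 CPM in the POU2AF1 knockdown, 5.84 and 6.40 CPM in the POU2F2 knockdown and 3.51 CPM in the control, with a log2 change of 2.43 ± 0.20 (adjusted p = 9.9e-12). The kinases IRAK2 (1.53 ± 0.28) and BTK (0.73 ± 0.11), the adaptor PIK3AP1 (0.82 ± 0.13), the IKK-related kinase IKBKE (0.84 ± 0.11) and the NF-kB inhibitors NFKBIA (0.93 ± 0.12) and CYLD (0.76 ± 0.13) rose as well. TLR2, the partner of TLR1 and TLR6, fell (-1.78 ± 0.56, adjusted p = 0.0179) at a level of 0.511 CPM in the POU2AF1 knockdown, 0.557 and 1.35 CPM in the POU2F2 knockdown and 1.76 CPM in the control. The adaptor SARM1 (-0.89 ± 0.11), the kinase IRAK1 (-0.54 ± 0.12) and the ubiquitin ligase PELI3 (-0.67 ± 0.18) fell too. POU2F2 knockdown called 4 of the 51, all higher. That is 7.84% of the list, near the 7.35% of all genes called. They were IRF7 (0.80 ± 0.18), PIK3AP1 (0.49 ± 0.11), IKBKE (0.43 ± 0.10) and NFKBIA (0.42 ± 0.11).

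**Figure D5:**
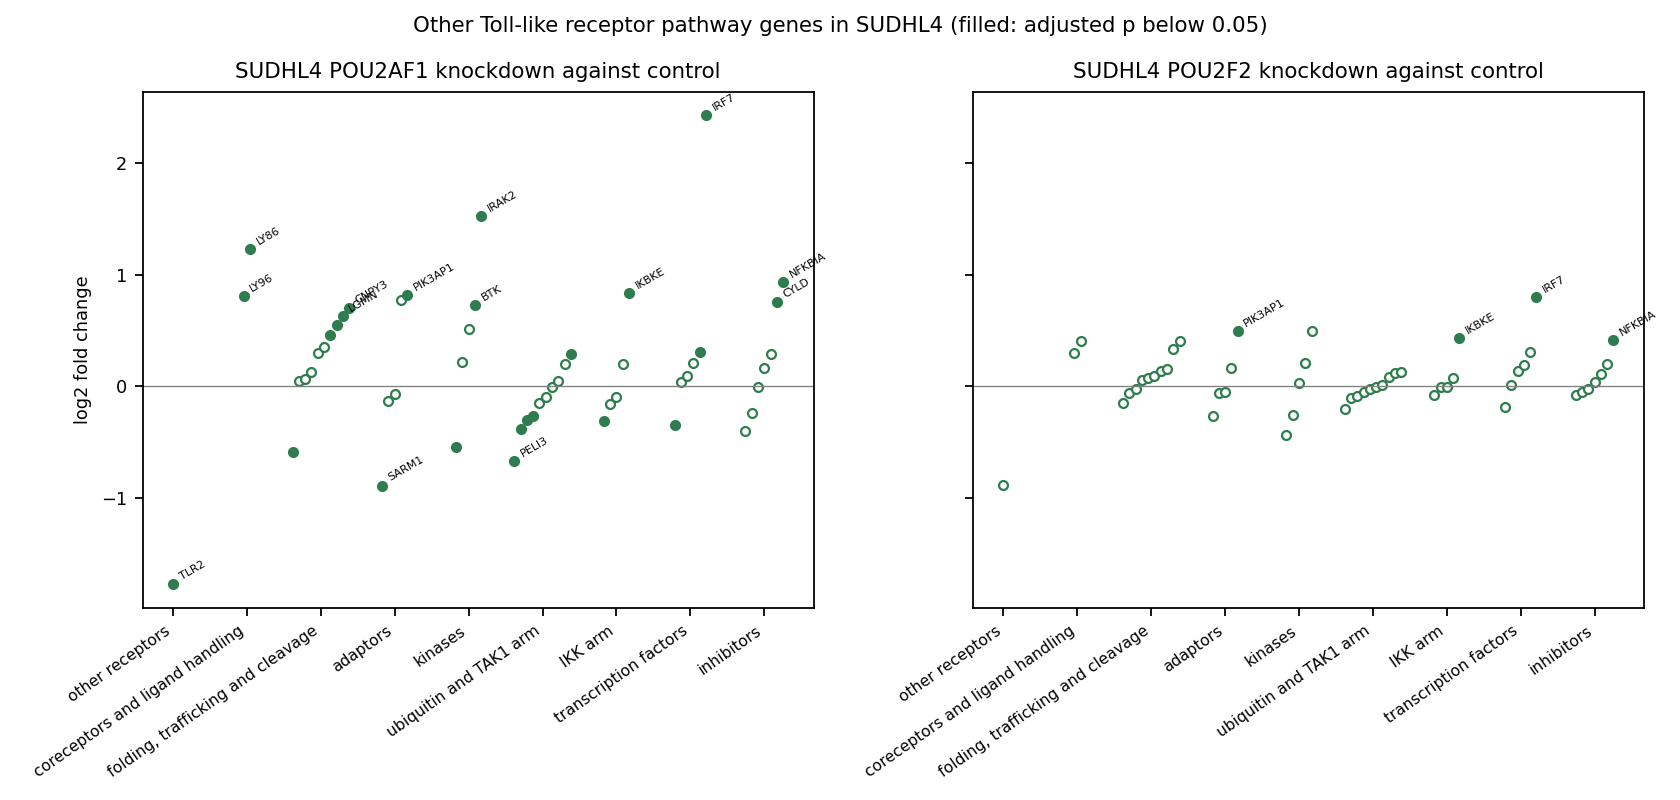
Log2 fold change against control (y axis) of the 51 other Toll-like receptor pathway genes tested in SUDHL4, sorted within 9 roles (x axis), for POU2AF1 knockdown (left) and POU2F2 knockdown (right); filled points have an adjusted p below 0.05 in the fit of the line alone. With POU2AF1 knockdown points spread from TLR2 at -1.78 to IRF7 at 2.43, and with POU2F2 knockdown 4 genes are filled, all above 0.

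In OCI-Ly7 50 of the 58 were tested and 1 (2%, against 0.887% of all genes) was called with POU2AF1 knockdown, PELI1, a ubiquitin ligase of the IRAK complex. PELI1 had 97.6 to 125 CPM in the 6 POU2AF1 knockdown libraries against 161, 202, 167 and 155 CPM in the controls, so that the groups did not overlap, and its log2 change was -0.58 ± 0.12 (adjusted p = 0.0187). With the series block TRAF3 (0.84 ± 0.14), LGMN (0.43 ± 0.09), TLR3 (1.95 ± 0.52) and TASL (2.04 ± 0.46) were called as higher and IRF3 (-0.29 ± 0.08) as lower in addition, which made 12.0% of the list against 5.59% of all genes. POU2F2 knockdown called none of the 50, by edgeR with the batch term or the series block.

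Across the 18 OCI-Ly7 libraries, the genes whose log2 CPM followed CD180 most closely were HLA-DRA, a chain of MHC class II (Pearson r 0.964), FCRLA (0.96) and CUX2 (0.956). For TLR10 they were DIPK1A (0.971), RCBTB2 (0.961) and MIR17HG (0.96), and for UNC93B1 ATP5F1D (0.978), TSR3 (0.973) and SCRIB (0.973). Those nearest the other members reached 0.943 for TLR1 (NBN) and TLR6 (LCOR), 0.938 for TLR4 (TPMT), 0.926 for TLR9 (FAAP100), 0.858 for MYD88 (TMEM161B-DT) and 0.854 for TLR7 (TCEAL9). These libraries share the batches described above, and the correlations are given as a description of them.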

How the data were processed

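The authors trimmed reads with fastp and quantified transcripts with Salmon 1.5.1 against GRCh38.p13, per the submitters' processing notes. The sources used here give no transcript release or quantification options. Each of 26 deposited files gives estimated counts and TPM for 227912 transcripts, in the authors' units. Of these, 205964 were matched by identifier to 58592 genes of GENCODE release 29, holding 98.4% to 98.9% of the reads of each file, and both values were summed per gene, the estimated counts then being rounded. Of 56 pairs of files within a group, 3 differed by about the sampling noise (ratio 1.125 to 1.132, against 2.5 to 87 for the 53 others). They were merged. A file that matched the sum of one pair within 2 reads in 92.95% of 26839 genes was counted with it, which left 22 libraries. The threshold of 1.5 was set after the repeats were seen.

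Each line was fitted on all its genes with edgeR 4.0.16 in R 4.3.3 (TMM, a filterByExpr minimum of 10 reads and the robust quasi-likelihood test), with labelled batch as a term in OCI-Ly7. Line contrasts and interactions came from 1 fit of all 22 libraries. Benjamini-Hochberg adjustment ran over all genes tested, and an adjusted p below 0.05 was a call. DESeq2 1.42.0, limma 3.58.1 on log2(TPM + 0.1) and log2(TPM + 1), other filters, block terms and leaving out each library were tried. CPM are TMM-normalised, and intervals of single libraries are exact 95% Poisson intervals. The fit was tested on simulated data.

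The text names the 9 members, the targeted genes, pathway genes called in a knockdown against control (up to 20 per comparison by adjusted p) and, per member, the genes most like it over OCI-Ly7 libraries. CD14, genes named from the series block and marker genes named beside results were chosen after their values were seen, as were the sum of TLR9 and AC097637.1 and the series block without single libraries. The members and lists were chosen with earlier results of these data known. Promoters are from RefSeq. Single values of some marker genes are not reported here.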

Additional observations from a re-analysis of the deposited data

Results flagged for a closer look

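In 27 groups (the 9 genes in the OCI-Ly7 groups of 6, 8 and 4 libraries), 4 values stood apart by Dixon's criterion at 95%, where chance gives about 1 in 20 groups. TLR1 was low in OCI-Ly7 POU2AF1 knockdown replicate 6, at 4.81 CPM, and TLR9 was high in POU2F2 knockdown replicate 3, at 19.1 CPM. UNC93B1 was high in POU2F2 knockdown replicate 3, at 42.2 CPM, and in control replicate 1, at 41.0 CPM. The last is the batch 1 control, and POU2F2 knockdown replicate 3 is the batch 2 library that correlated best with batch 1. The response to POU2AF1 knockdown differed between the lines by an interaction test for TLR4 (-3.42), TLR7 (-3.56) and CD180 (-2.00), as log2 change in OCI-Ly7 minus that in SUDHL4.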

How the results depend on the processing

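Counts of called members are given here. For OCI-Ly7 POU2AF1 knockdown against control (0 in the main test) the count was 1 (CD180) with the series block, the replicate block and unmerged files, 2 with the series block when POU2F2 knockdown replicate 3 was set in batch 1, and 0 to 1 when each library was left out. For OCI-Ly7 POU2F2 against POU2AF1 knockdown (0) it was 1 with the series block, the replicate block, no batch term, unmerged files or POU2F2 knockdown replicate 3 in batch 1, and 2 with the last and the series block. The series block without POU2AF1 knockdown replicate 1 gave 3, 1 and 1 in the POU2AF1, POU2F2 and direct comparisons, and without control replicate 1 it gave 1 in the direct comparison. Same-numbered libraries of OCI-Ly7 did not all deviate together (r of -0.50 to 0.70 over 10 pairs), so the block is an alternative only. With the replicate block 273, 0 and 244 of all genes were called in the POU2AF1, POU2F2 and direct comparisons, against 142, 0 and 26, and CD180 was at -1.32 in the first (adjusted p = 0.0451). In the same comparisons and order unmerged files called 572, 1 and 69 of 15537 genes. The series block called 894, 13 and 201 of 16001, and 1120, 2 and 688 with POU2F2 knockdown replicate 3 set in batch 1. In the direct comparison no batch term called 322 genes, and that replicate in batch 1 with the batch term 120. Counts over all genes are not given here for the series block without single libraries. No paired analysis was possible in SUDHL4 because its groups share fewer than 2 numbers after merging.

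In SUDHL4, limma on either TPM scale gave 4 (from 7) for POU2AF1 knockdown, 2 (from 5) for POU2F2 knockdown and 1 (from 5) for their direct comparison. The pooled fit gave 2, 1 and 0, and without each POU2F2 knockdown library in turn 2 to 2, 0 to 1 and 0 to 0. DESeq2 gave 5, 4 and 3, RLE size factors 8, 5 and 7, unmerged files 7, 7 and 5, the minimum of 50 reads 8, 5 and 5 and no filter 6, 5 and 5. Over all genes, in the same order, the main test called 6247, 1247 and 4446 of 16973 and DESeq2 3398, 397 and 2224. RLE size factors called 6493, 1531 and 4693, and limma on log2(TPM + 0.1) 3785, 358 and 2060. Unmerged files called 8896, 3761 and 7155 of 15035 genes. The minimum of 50 reads called 5733, 1055 and 4126 of 12988, and no filter 5850, 1036 and 4116 of 35069. DESeq2 also gave 2 members (from 0) for the POU2F2 knockdown response between lines, as did the series block there. Between control lines, limma on log2(TPM + 0.1) gave 2 (from 4), the series block or batch 1 alone 6, and leaving out each library 3 to 5; for the POU2AF1 knockdown response that range was 2 to 3 (from 3), with 2 by limma and 4 with the series block or batch 1 alone. Over all genes limma on log2(TPM + 0.1) called 3697 between control lines and 156 for the POU2AF1 knockdown response. The main test called 4448 and 151 of 18918 there, and batch 1 alone 5178 and 138 of 18530. For the POU2F2 knockdown response DESeq2 called 29 genes, against 2 in the main test. No called value changed sign under any alternative run. The cause of these differences was not tested. With 1 control library, SUDHL4 changes of low genes rest on few reads (24 of TLR7, 60 of TLR4).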
